A study of Rattus norvegicus with 6 samples.

Results

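Axon guidance genes encode secreted and membrane-bound cues and the receptors that read them, and the same molecules steer growing blood vessels. The members described here are all 69 rows of the deposited gene table, of 37991 rows, whose symbol names a semaphorin, plexin, neuropilin, ephrin, Eph receptor, Slit, Robo, netrin, UNC5 receptor or Dcc. They comprise 20 semaphorins, 11 plexins and neuropilins, 8 ephrins, 14 Eph receptors, 7 Slits and Robos, and 9 netrins and netrin receptors. Semaphorins bind plexins, and most of the secreted class 3 semaphorins need a neuropilin as co-receptor. Ephrins are anchored in the membrane and bind Eph receptor tyrosine kinases on the neighbouring cell, while Slits bind Robos and netrins bind Dcc and UNC5 receptors. In vessels, neuropilin 1 also binds vascular endothelial growth factor, ephrin-B2 marks arteries and EphB4 marks veins.

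RNA was measured in the healing Achilles tendon of male Sprague-Dawley rats, an outbred stock, which were 8 weeks old when the tendon was cut. The PM group (n = 3) inhaled fine particles (PM2.5) on 3 occasions per week over 6 weeks. The non-PM group (n = 3) had the same surgery without this exposure. The healed portion was taken whole, so each library mixes all cells of the tissue, and fewer cells of a type and less RNA per cell cannot be told apart. The labels do not tie the samples to animals, so the p-values speak only of the spread among these libraries, which may be technical.

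The libraries held between 46357986 and 62298837 counts. Non-PM replicate 3 stood apart: the members took 0.116% of its counts and 0.189% to 0.247% of those of the other libraries. FPKM are the authors' values scaled to transcript length and depth, on which genes can be compared with each other. The FPKM sum over 10 tendon markers was 1450 in that library and 8337 to 14623 elsewhere. Col1a1, Col1a2 and Col3a1 made up most of this sum, and they, Tnmd, Tnc, Fmod and Thbs4 were lowest there. Scx (25.0, beside 16.7 to 35.7 elsewhere), Kera and Mkx were not. The sum over 12 skeletal muscle markers was 35440 there and 7074 to 28317 elsewhere. Acta1, Tnnt1 and Myh7 were highest there, but the other muscle markers were highest in PM replicate 2 or 3. Myh4 was 7.57 in non-PM replicate 3, and 916 and 934 in PM replicates 2 and 3. Non-PM replicate 2 held keratinocyte markers, with 273.1 FPKM over 7 genes against 1.09 to 3.39 in the other libraries. Krt5 (112.2), Krt14 (68.1), Perp (60.5) and Dsp (29.8) made up nearly all of that sum. Krt10 (2.19), Krt1 (0.278) and Lor (0.0385) were low in that library. Of 10 neuron markers, Snap25, Syt1 and Rbfox3 were under 0.1 FPKM in every library, while Uchl1 (4.82 to 13.2), Gap43 (1.72 to 9.38), Stmn2 (1.39 to 6.48) and Tubb3 (0.605 to 2.38) were detected in all 6 and Nefl, Nefm and Nefh lay between 0.0587 and 1.64. The FPKM sum over the 10 was 12.8 to 24.2 in the PM group and 14.9 to 28.0 in the non-PM group.

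Guidance genes spanned a wide range of levels in the healing tendon. By mean FPKM over the 6 libraries, 11 of the 69 members stood at 10 or more, 32 between 1 and 10, 17 between 0.1 and 1, and 9 below 0.1. The most abundant was Plxnd1, the endothelial receptor of Sema3e, at 33.1 ± 9.03 FPKM (SD over 6 libraries). Efna1 (25.0 ± 2.66), an A-type ephrin, and Sema3b (24.9 ± 6.56), a secreted semaphorin, followed and did not differ beyond their SD, and neither differed from Plxnd1 by more than its SD. Plxnb2 (19.0 ± 4.65), Ephb4 (18.9 ± 5.07), Nrp2 (18.2 ± 10.2) and Nrp1 (15.8 ± 4.84) came next and did not differ from each other beyond their SD. Sema3c, Sema7a, Sema3f and Unc5b were the remaining members at 10 FPKM or more. Dcc, the attractive netrin receptor, had 86 counts over all libraries and Epha6 had 4. Epha8 had none, and a limit of 3 counts corresponds to 0.0454 to 0.0665 CPM per library, counting error only. CPM are counts scaled to library totals that were corrected for composition.

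**Figure D1:**
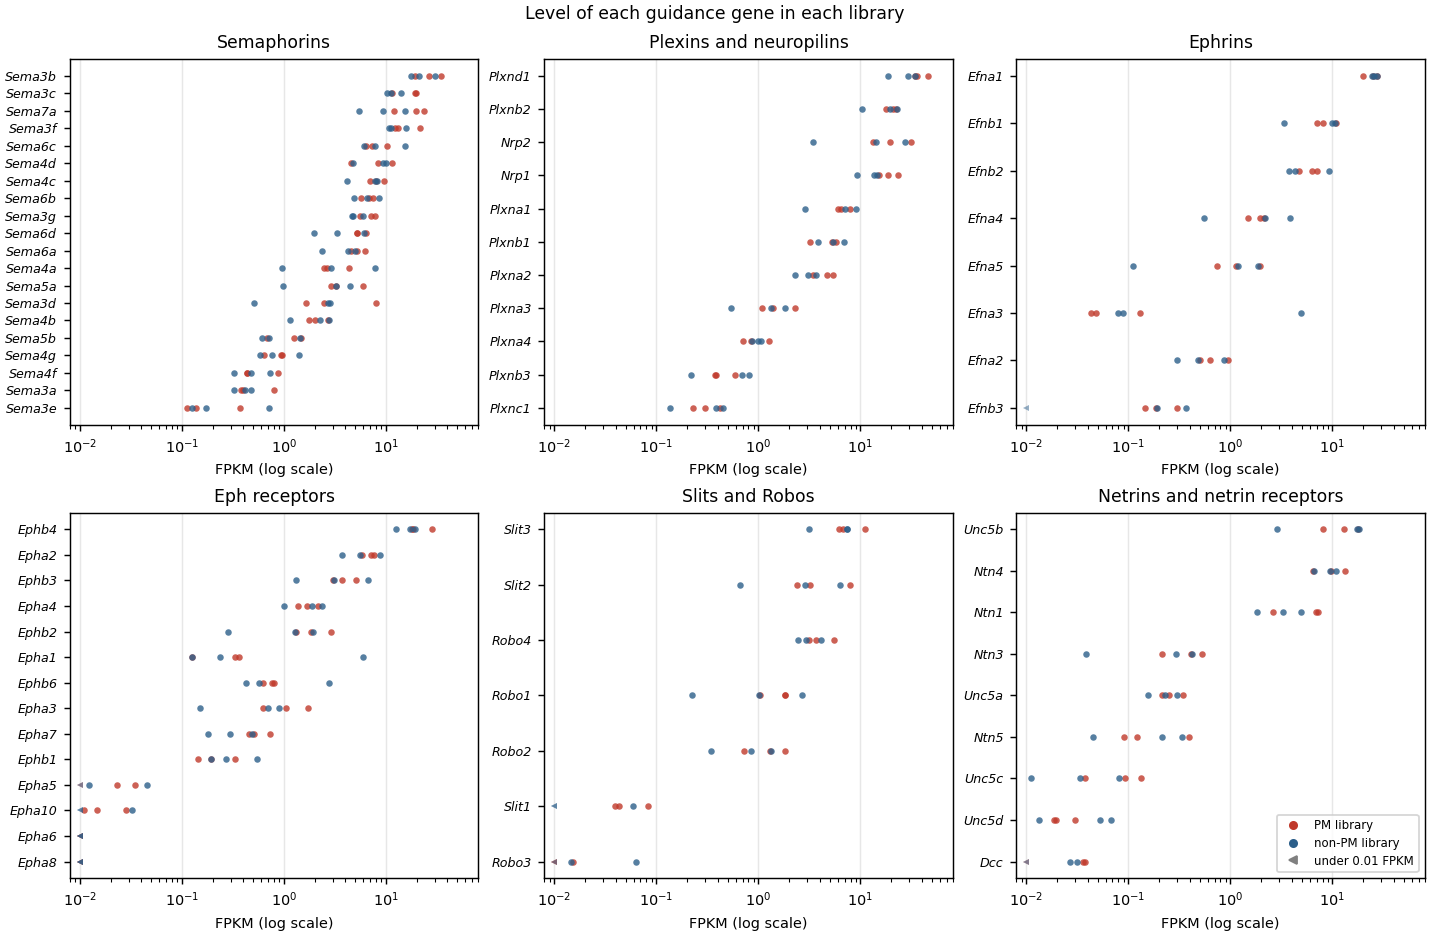
FPKM of each of the 69 members (log axis) in the 3 PM libraries (red) and the 3 non-PM libraries (blue), by role and ordered by mean level. Plxnd1, Efna1 and Sema3b had the highest means, and Efna3 and Epha1 had 1 non-PM library far from the other 5.

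Libraries differed widely for many members. The highest FPKM was a median of 3.23 times the lowest among 61 tested members that had counts in every library, and the ratio was over 10 in 10 of them and under 2 in 6. On the scale of CPM with TMM, a factor that corrects totals for library composition, 39 of 65 tested members (60.0%) had their lowest value in non-PM replicate 3, as did 36.2% of all genes tested. PM replicate 3 held the highest value of 25 members (38.5%, against 19.0% of all genes tested).

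The group comparison asks which guidance genes differed in tendons of rats exposed to PM. Nrp1, Plxna2 and Epha7 were higher in the PM group and Efna3 was lower, by the relaxed criterion of the study's methods (unadjusted p below 0.05 and at least 1.2 times higher or lower). The quasi-likelihood test of edgeR was fitted over 18134 genes, 65 of them members; Epha6, Epha8, Epha10 and Robo3 had too few counts. Of all genes tested 1.47% were higher, 1.49% lower and 2.96% either, beside 4.62% (3 of 65), 1.54% (1 of 65) and 6.15% (4 of 65) of the members. No member passed adjustment over all genes (smallest adjusted p = 0.942, edgeR), where 4 had an unadjusted p under 0.05. DESeq2 gave 0 past adjustment and 3 at an unadjusted p under 0.05, and gave no p for Efna3 and Epha1. The study lists Nrp1, Plxna2 and Epha7 in a pathway table from the same samples, so these calls are not independent evidence.

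Of the 65 members, 46 lay above 0 on the log2 fold change scale and 19 below, and their median was 0.16, beside 49.5% above 0 and a median of -0.0040 for all genes tested. The members' median became 0.03 when non-PM replicate 3 was dropped and 0.04 when PM replicate 3 was, with 35 members above 0 each time. Leaving out PM replicate 2 gave 0.28, and leaving out non-PM replicate 2 gave 0.34. Higher members numbered 5 of 66 without PM replicate 2 (1.81% of all genes), 1 of 66 without PM replicate 1 (1.23%) and 0 of 65 without PM replicate 3 (0.590%). With a non-PM library dropped, they numbered 2 of 65 for replicate 2 (3.13% of all genes) and 1 of 66 for replicate 3 (1.48%), shares close to those of all genes. Dropping non-PM replicate 1 gave 3 of 66 (1.40%), but these were Sema6d, Sema7a and Slit1. Lower members numbered 0 without any single PM library (0.515% to 1.09% of all genes), 3 when non-PM replicate 1 was dropped (1.85%) and 2 when non-PM replicate 3 was (2.94%), and without non-PM replicate 2 (3.38%) the 1 lower member was Unc5d.

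**Figure D2:**
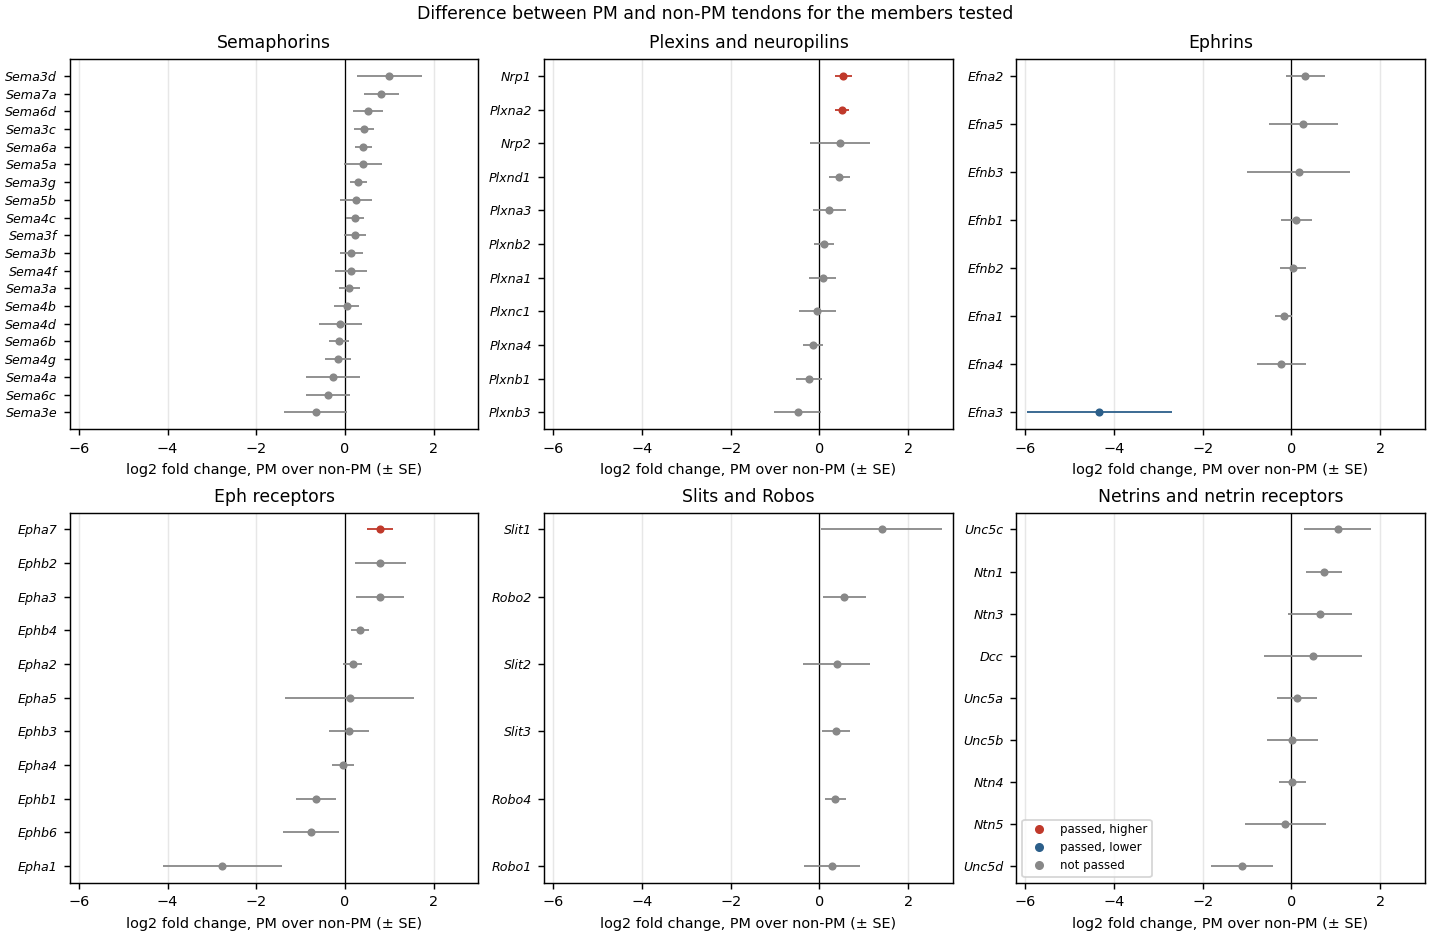
Log2 fold change of PM over non-PM with its standard error for the 65 members tested, by role, with the 4 members past the relaxed criterion in colour and the other 61 in grey. Efna3 (-4.33) and Epha1 (-2.77) lie far to the left with wide errors.

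In 6 members all 3 PM values lay above all 3 non-PM values in CPM, and in 0 all lay below. Plxna2, Nrp1, Epha7, Sema6a, Plxnd1 and Ephb4 made up this set, which is 9.23% of the members tested. Of all genes tested 4.77% lay above without overlap, 4.91% below and 9.68% either. In FPKM only Nrp1 and Plxnd1 of the 6 did not overlap, which is 2 of 60 members with a mean FPKM of 0.1 or more, beside 3.76% of all genes so filtered, so the members did not exceed all genes on that scale. With 1 library left out, 6 to 13 members lay above, where 6.35% to 13.8% of all genes did. Members below numbered 0 to 3, and the share of all genes below was not computed for these runs. The highest counts above were 13 of 66 without PM replicate 2 (13.8% of all genes) and 12 of 65 without non-PM replicate 2 (13.8%). Dropping non-PM replicate 1 gave 11 of 66 (8.89%).

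**Figure D3:**
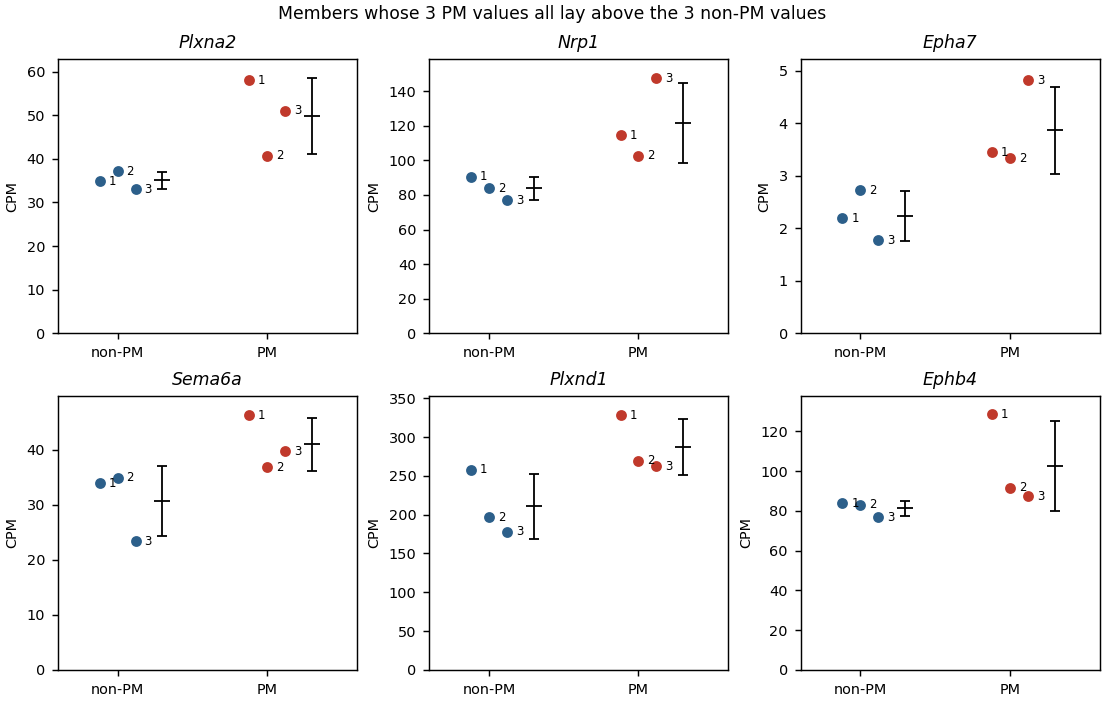
CPM of the 6 members without overlap between the groups, with 1 point per library and the group mean ± SD (n = 3). For Ephb4 the gap ran from 84.0 in the highest non-PM library to 87.4 in the lowest PM library, and for Nrp1 from 90.5 to 102.6.

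Receptors of semaphorins held 2 of the 3 higher members. Nrp1 (gene 246331), the co-receptor of class 3 semaphorins and of vascular endothelial growth factor, measured 114.5, 102.6 and 147.4 CPM in PM libraries 1, 2 and 3, beside 90.5, 84.0 and 76.9 CPM in non-PM libraries 1, 2 and 3. Every PM library was above every non-PM library, and PM replicate 3 was the highest. The group means were 121.5 ± 23.2 and 83.8 ± 6.84 CPM (SD), a log2 difference of 0.54 ± 0.20 (SE; edgeR, unadjusted p = 0.0304, adjusted p = 0.942). The Nrp1 call held without PM replicate 2 (0.65) and was lost without PM replicate 1 (0.58), PM replicate 3 (0.38), or non-PM replicate 1 (0.59), 2 (0.54) or 3 (0.46). Plxna2 (gene 289392), a plexin that pairs with neuropilins and also reads class 6 semaphorins, measured 58.0, 40.7 and 51.0 CPM in the PM group, beside 34.9, 37.2 and 33.1 CPM in the non-PM group. The non-PM libraries lay close together, with PM replicate 2 only slightly above them. The log2 difference of Plxna2 was 0.51 ± 0.17 (SE; edgeR, unadjusted p = 0.0198, adjusted p = 0.942), and the call was lost without PM replicate 1 (0.39), PM replicate 3 (0.50) or non-PM replicate 1 (0.50).

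The other plexins and Nrp2 did not pass. Plxnd1 (gene 312652) measured 328.5, 269.7 and 262.6 CPM in the PM group, beside 258.1, 196.6 and 178.0 CPM in the non-PM group, a log2 difference of 0.44 ± 0.23. The groups did not overlap, although non-PM replicate 1 was almost level with PM replicate 3. Nrp2, the neuropilin of veins and lymphatic vessels, measured 80.1, 131.0 and 194.8 CPM, beside 185.8, 80.2 and 27.8 CPM. The non-PM values of Nrp2 spanned most of the range of all 6 libraries, and its log2 difference was 0.47 ± 0.67 with all libraries, 0.02 when non-PM replicate 3 was dropped and 1.32 when non-PM replicate 1 was. Plxnb1 (-0.24 ± 0.29) and Plxnb2 (0.10 ± 0.23), receptors of class 4 semaphorins, differed by less than their errors. So did Plxnc1 (-0.04 ± 0.42), the receptor of Sema7a, at a mean of 0.321 FPKM.

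Promoters are shown for the 3 higher members because the study concerns CREB, a factor that binds the cAMP response element TGACGTCA. RefSeq windows of 300 bases on the build GRCr8, from 250 before to 50 after the start site, were found for 53 of the 69 members; the files themselves were made on Rnor_6.0. The complete element, which reads the same on both strands, was in 1 of 53 member promoters (1.89%) and in 2.65% of promoters of genes tested. Its core TGACG, searched on both strands and contained in the complete element, was in 9 of 53 (17.0%) and in 28.0%. The 3 higher members held neither in these windows. The GC box GGGCGG, added after the data were seen and searched on both strands, was in 56.6% of member promoters and 54.1% of promoters of genes tested, and capitals mark it, or its reverse complement, in the first 3 sequences. The windows, 5′ to 3′ on the plus strand, are chr19:73256307-73256606 (Nrp1), chr13:108691280-108691579 (Plxna2), chr5:47771643-47771942 (Epha7) and chr5:158888379-158888678 (Epha2), the last being the 1 member with the complete element, with TGACG and TGACGTCA in capitals.
Nrp1: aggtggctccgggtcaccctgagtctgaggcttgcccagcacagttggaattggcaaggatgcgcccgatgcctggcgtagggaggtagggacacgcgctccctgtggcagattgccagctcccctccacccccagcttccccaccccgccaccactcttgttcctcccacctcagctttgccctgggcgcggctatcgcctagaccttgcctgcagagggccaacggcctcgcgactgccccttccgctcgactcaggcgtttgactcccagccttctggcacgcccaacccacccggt
Plxna2: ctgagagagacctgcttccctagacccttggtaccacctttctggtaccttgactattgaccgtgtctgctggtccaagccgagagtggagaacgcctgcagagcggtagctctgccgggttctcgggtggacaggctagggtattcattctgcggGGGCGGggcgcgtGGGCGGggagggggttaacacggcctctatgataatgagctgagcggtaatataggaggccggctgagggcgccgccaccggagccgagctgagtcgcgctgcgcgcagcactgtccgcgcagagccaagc
Epha7: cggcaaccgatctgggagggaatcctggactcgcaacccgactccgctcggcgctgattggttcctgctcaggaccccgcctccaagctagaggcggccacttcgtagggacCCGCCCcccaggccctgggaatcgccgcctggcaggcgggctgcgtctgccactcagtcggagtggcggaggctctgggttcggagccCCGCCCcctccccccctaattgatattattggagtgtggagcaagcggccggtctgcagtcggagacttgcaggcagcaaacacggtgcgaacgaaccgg
Epha2: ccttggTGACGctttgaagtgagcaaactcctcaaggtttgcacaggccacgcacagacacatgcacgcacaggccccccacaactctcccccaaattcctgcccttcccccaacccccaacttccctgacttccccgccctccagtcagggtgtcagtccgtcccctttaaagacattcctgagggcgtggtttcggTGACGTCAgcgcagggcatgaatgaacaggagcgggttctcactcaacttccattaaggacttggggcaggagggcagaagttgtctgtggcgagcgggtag
The GC box starts at -94 and -81 in Plxna2 and, on the opposite strand, at -138 and -50 in Epha7, while the Nrp1 window holds none, with -1 the last base before the start site. In Epha2, an EphA receptor of epithelia and endothelium, the complete element starts at -52 and a further TGACG at -244. Epha2 (gene 366492) measured 29.5, 26.3 and 32.1 CPM in the PM group, beside 24.3, 33.5 and 20.3 CPM in the non-PM group. These groups overlapped, with a log2 difference of 0.17 ± 0.21.

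None of the 20 semaphorins passed the criterion, and 14 of them lay above 0 (median 0.18 on the log2 scale). Sema3b (gene 363142), the most abundant, measured 78.3, 64.4 and 103.8 CPM in the PM group, beside 56.0, 84.3 and 82.9 CPM in the non-PM group. Its groups overlapped, with a log2 difference of 0.14 ± 0.25. Sema3c (gene 296787), which signals through neuropilins and Plxnd1, measured 101.5, 64.9 and 107.3 CPM, beside 62.5, 69.2 and 71.8 CPM. PM replicate 2 fell among the non-PM values of Sema3c and the other PM libraries lay well above them, so that the log2 difference was 0.43 ± 0.22 with all libraries and 0.62, past the criterion, without PM replicate 2. Sema3e, the ligand of Plxnd1, was scarce at 0.271 FPKM, beside 33.1 FPKM of its receptor.

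Sema7a and Sema6a were the membrane-bound semaphorins nearest to the criterion. Sema7a (gene 315711), which is held by a lipid anchor and binds integrins as well as Plxnc1, measured 35.5, 77.0 and 59.2 CPM in the PM group, beside 49.5, 26.2 and 21.7 CPM in the non-PM group. PM replicate 1 and non-PM replicate 1 crossed over. The log2 difference of Sema7a was 0.82 ± 0.40 (edgeR, unadjusted p = 0.0824, adjusted p = 0.942), and it passed the criterion without PM replicate 1 (1.07) or non-PM replicate 1 (1.25). Sema6a (gene 361324), a ligand of Plxna2 and Plxna4, measured 46.3, 36.9 and 39.8 CPM, beside 34.0, 34.9 and 23.4 CPM. Non-PM replicate 3 was well below the rest, and the log2 difference of Sema6a was 0.41 ± 0.20 with it and 0.24 without it. Sema6c had 136.3 CPM in non-PM replicate 3 and 38.8 to 85.3 CPM elsewhere, a log2 difference of -0.39 ± 0.50.

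Among 11 Eph receptors tested, Epha7 was higher and 10 did not pass. Epha7 (gene 171287), a receptor of A-type ephrins, measured 3.45, 3.33 and 4.82 CPM in the PM group, beside 2.19, 2.73 and 1.77 CPM in the non-PM group. These values rest on 80 to 275 counts per library, and the groups did not overlap. The log2 difference of Epha7 was 0.79 ± 0.29 (SE; edgeR, unadjusted p = 0.0305, adjusted p = 0.942). The Epha7 call was lost without PM replicate 1 (0.87), PM replicate 3 (0.61), non-PM replicate 1 (0.77) or non-PM replicate 3 (0.64). Ephb4 (gene 686310), the receptor of ephrin-B2 on veins and the most abundant of the family, measured 128.8, 91.7 and 87.4 CPM, beside 84.0, 83.1 and 76.9 CPM. PM replicate 1 was high, and the log2 difference of Ephb4 was 0.34 ± 0.20 with it and 0.14 without it. Ephb2 (0.79 ± 0.58) and Epha3 (0.79 ± 0.54) had differences of the same size as Epha7 with wider errors, each lowest in non-PM replicate 3 and highest in PM replicate 3.

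The values of Efna3 and Epha1 turned on 1 library. Efna3 (gene 170901), an A-type ephrin, measured 0.333, 0.130 and 0.123 CPM in the PM group, beside 0.225, 11.5 and 0.310 CPM in the non-PM group. Only non-PM replicate 2 was high, with 606 counts where the others had 7 to 22, and the other non-PM values lay within the PM range. The log2 difference of Efna3 was -4.33 ± 1.64 (SE; edgeR, unadjusted p = 0.0356, adjusted p = 0.942) and -0.43 without that library. The Efna3 call was also lost without PM replicate 1 (-4.96), 2 (-4.11) or 3 (-4.08). Epha1 (gene 312279), a receptor of epithelia, measured 1.29, 0.521 and 1.26 CPM, beside 0.880, 19.5 and 0.642 CPM. Its log2 difference was -2.77 ± 1.34 with all libraries, turned to 0.43 without non-PM replicate 2, and passed the criterion without non-PM replicate 1 (-3.29) or 3 (-3.34). Ephb6 (11.2 CPM, 1.95 to 3.56 elsewhere) and Sema4a (24.5 CPM, 4.21 to 14.5 elsewhere) were also highest there. This is the library with 273.1 summed FPKM of keratinocyte markers, of which Krt5 was at 112.2 FPKM there and at most 0.146 elsewhere, and the part of keratinocytes in these values was not tested.

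**Figure D4:**
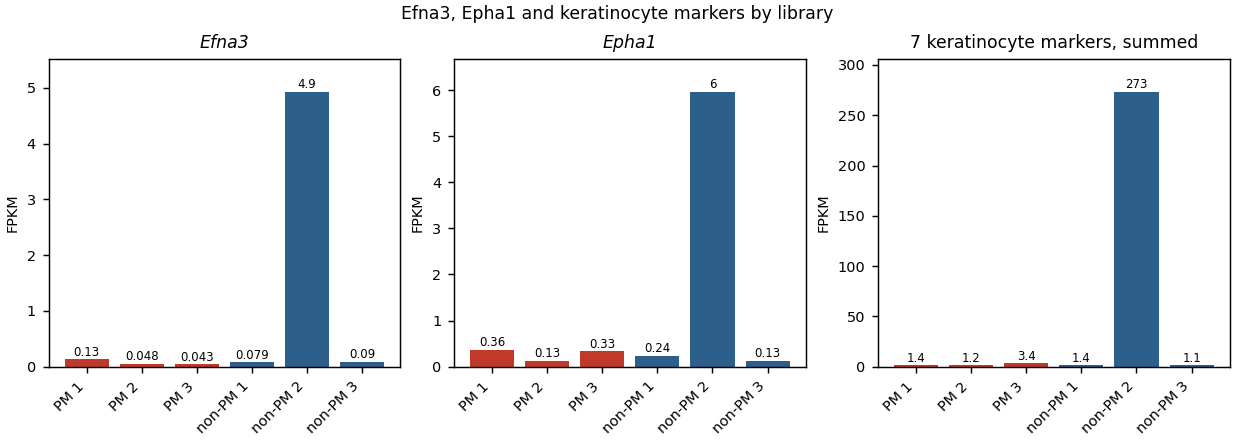
FPKM of Efna3, of Epha1 and of 7 keratinocyte markers summed, in each of the 6 libraries. In each panel non-PM replicate 2 stood far above the other libraries.

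The remaining ephrins did not pass. Efna1 (gene 94268) measured 44.2, 44.4 and 33.4 CPM in the PM group, beside 41.2, 40.8 and 55.6 CPM in the non-PM group, with both extremes in replicate 3 and a log2 difference of -0.17 ± 0.19. Efnb2, the arterial ligand of Ephb4, measured 7.75, 6.24 and 8.80 CPM, beside 5.54, 10.5 and 6.14 CPM. Both extremes of Efnb2 were non-PM libraries, and its log2 difference was 0.04 ± 0.30.

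All 6 Slits and Robos tested lay above 0 (median 0.38 on the log2 scale), as did 49.5% of all genes tested, and none passed. The summed FPKM of the 7 Slits and Robos was 6.81 in non-PM replicate 3 and 15.5 to 26.3 elsewhere. Slit2, Slit3, Robo1, Robo2 and Robo4 had their lowest CPM in non-PM replicate 3. Slit1 had no count there or in non-PM replicate 2. Slit3 (gene 83467), the most abundant Slit at 6.98 FPKM, measured 33.6, 40.0 and 61.5 CPM in the PM group, beside 43.4, 38.1 and 23.1 CPM in the non-PM group. The extremes were PM replicate 3 and non-PM replicate 3, and the log2 difference of 0.37 ± 0.31 was 0.08 without the former and 0.13 without the latter. Slit2, known as a repellent of commissural axons, ran from 7.86 to 58.8 CPM within the non-PM group alone (log2 difference 0.39 ± 0.75). Robo4 (gene 300518), the endothelial Robo, measured 20.7, 12.5 and 13.9 CPM, beside 11.5, 14.05 and 11.1 CPM. Only PM replicate 1 was clear of the other 5 libraries, and the log2 difference of Robo4 was 0.36 ± 0.24 with it and 0.11 without it.

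No netrin or netrin receptor passed. Unc5b (gene 60630), the UNC5 receptor of endothelium, had the highest mean at 12.8 ± 6.23 FPKM, not beyond its SD from Ntn4, a netrin of basement membranes, at 9.37 ± 2.62 FPKM. Unc5b measured 48.9, 84.5 and 106.3 CPM in the PM group, beside 114.7, 97.8 and 23.6 CPM in the non-PM group. Both its highest and its lowest value were non-PM libraries, and the log2 difference was 0.02 ± 0.58 with all libraries and -0.42 without non-PM replicate 3. Ntn1, a secreted netrin, measured 15.2, 6.31 and 17.1 CPM, beside 7.45, 10.1 and 5.63 CPM. PM replicates 1 and 3 were above every non-PM library and PM replicate 2 was not, and the log2 difference of Ntn1 was 0.74 ± 0.41.

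The list of members known in vessel endothelium was chosen with earlier results of these data known. It held Robo4, Plxnd1, Nrp1, Nrp2, Efnb2, Ephb4, Efna1, Unc5b and Sema3g. Of these 9, 8 lay above 0 and Efna1 below. The median of the 9 on the log2 scale was 0.34, beside -0.0040 for all genes. It was 0.14 for the other 56 members tested, which include Epha2, also a receptor of endothelium. Of the 9 listed, Nrp1 alone passed the criterion. Sema3g, a semaphorin of endothelium, measured 29.7, 23.2 and 27.8 CPM in the PM group, beside 24.4, 17.1 and 23.9 CPM in the non-PM group, a log2 difference of 0.30 ± 0.19. Of 13 general endothelial markers 12 lay above 0 with a median of 0.31, and none was at 0. Among these markers 2 were called higher (15.4%, beside 1.47% of all genes tested). Their summed FPKM was 441.4 to 724.1 in the PM group and 356.5 to 478.1 in the non-PM group. Without PM replicate 1, which had the highest sum, the endothelial median was 0.14, with 9 of 13 markers above 0. The median of the 9 vessel members was then 0.23, beside 0.22 for all 66 guidance members tested. Of 11 smooth muscle and pericyte markers 10 lay above 0 and 2 were called higher (18.2%). Their summed FPKM was 1328 to 1840 in the PM group and 1348 to 2119 in the non-PM group. Markers outside vessels also lay mostly above 0 for tendon (9 of 10, median 0.29), adipocytes (7 of 7, 0.98) and skeletal muscle (9 of 12, 1.09). Those above 0 were 5 of 9 for macrophages and 5 of 8 for lymphocytes. They were fewer for Schwann cells (2 of 10), chondrocytes (2 of 8), neurons (3 of 8) and keratinocytes (0 of 5). The part of the amount of vessel in the members' values was not tested.

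Signal transducers and partners of the receptors were examined as a separate list. Of 62 such genes 61 were tested, and 3 were higher (4.92%, beside 1.47% of all genes), 0 lower and 58 did not pass; 41 lay above 0, with a median of 0.10. Kalrn measured 28.2, 32.7 and 34.2 CPM in the PM group, beside 25.7, 25.9 and 20.6 CPM in the non-PM group. Arhgef12, which binds B-type plexins, measured 54.3, 47.5 and 61.5 CPM, beside 37.8, 43.0 and 44.7 CPM. Neither overlapped, with log2 differences of 0.40 ± 0.16 and 0.38 ± 0.15. Srgap3, of a family of GTPase-activating proteins that act below Robos, measured 13.3, 7.86 and 14.2 CPM, beside 6.40, 7.89 and 2.57 CPM, a log2 difference of 1.07 ± 0.45. PM replicate 2 of Srgap3 lay just under non-PM replicate 2. The study lists Kalrn and Srgap3 too, and none of the 3 passed adjustment (adjusted p = 0.942, edgeR). The Arhgef12 call was lost with DESeq2 and with DESeq2 size factors in edgeR, where Kalrn and Srgap3 remained. Higher partners numbered 0 without PM replicate 3 (0.590% of all genes) and 1 without PM replicate 1 (Kalrn, 1.23%). Dropping non-PM replicate 1 also left 1, Draxin, which was not among the 3 (1.40%), and dropping non-PM replicate 2 gave 6 of 61 (3.13%).

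Guidance genes have long transcripts, and fold changes moved with length over all genes. The length implied by counts and FPKM had a median of 5.36 kb in the 65 members and 2.80 kb in all genes tested. In 5 bins of equal size by length, 53 of the 65 members fell in the upper 2. The median log2 fold change of all genes was -0.20 in the shortest bin, then -0.05, 0.00062 and 0.06, and 0.12 in the longest. With 1 library left out it stayed between 0.07 and 0.17 in the longest bin and between -0.25 and -0.12 in the shortest. The 34 members of the longest bin had a median of 0.32 and 24 lay above 0, where 66.7% of all genes of that bin lay above 0 and 2.37% were called higher. The part of length in the members' values was not tested.

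**Figure D5:**
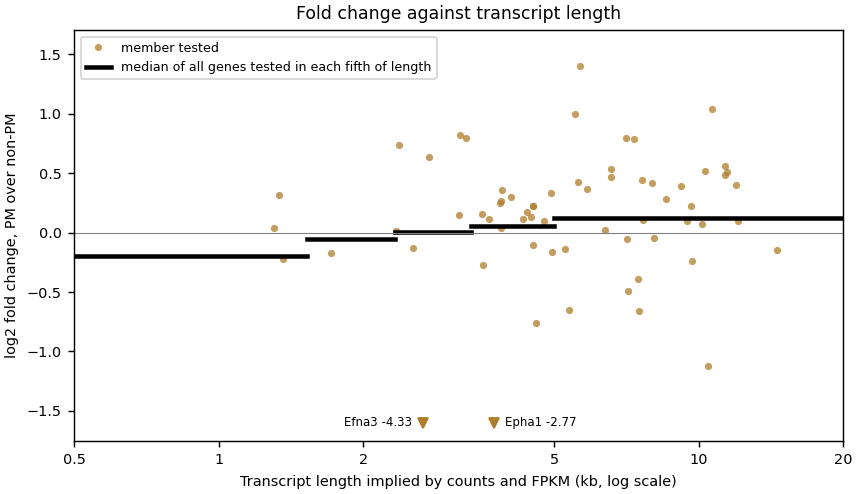
Log2 fold change (PM over non-PM) of each member tested against transcript length in kb (log axis), with black bars for the median of all genes in each of 5 length bins. The bars climb from -0.20 to 0.12, and most members lie to the right.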

How the data were processed

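Stranded poly(A) libraries from 3 PM and 3 non-PM tendons were sequenced as read pairs. The submitters' processing notes list the tools FastQC (0.11.7), Trimmomatic (0.38) and HISAT2 (2.1.0) and the build Rnor_6.0, and the study's methods add StringTie. The deposited table holds whole-number counts per gene and FPKM, which the authors scaled to transcript length and depth. The counting step, its use of strand and of reads with several matches are not given in the sources used here, so overlapping genes may share reads. Of 37991 genes, 12229 had no count. No pair of libraries agreed within sampling noise (lowest chi-square per degree of freedom 176.2).

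edgeR 4.0.16 under R 4.3.3 was fitted to the counts (filterByExpr, TMM, two-sided quasi-likelihood test, no covariate), with Benjamini-Hochberg adjustment over 18134 genes. The SE was obtained from the fold change and its F value. CPM are counts over TMM-scaled totals. Alternatives were DESeq2 1.42.0, limma 3.58.1 on FPKM, DESeq2 size factors, no filter, the replicate number as a block, and each sample left out. The fit was tested on simulated data.

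The members and lists were chosen with earlier results of these data known. Values per sample are given for members called, the most abundant of each role, those known in vessel endothelium, those the study lists and those with an unadjusted p from 0.05 to under 0.10; other members with values were chosen after these were seen. Of the other marker lists, members past the criterion numbered 3 of 12 higher for skeletal muscle, 1 of 7 higher for adipocytes, 1 of 8 tested lower for neurons, 2 of 5 tested lower for keratinocytes (Trp63 was not matched), and 0 for tendon, Schwann cells, macrophages, lymphocytes and chondrocytes.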

Additional observations from a re-analysis of the deposited data

How the results depend on the processing

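Nrp1, Plxna2 and Epha7 remained called with DESeq2, with DESeq2 size factors in edgeR and without the filter on low counts, and their log2 fold change was above 0 in every alternative run. DESeq2 called 0 members lower, but it gave no p for Efna3 and Epha1, so the Efna3 call was not tested there. Higher partners numbered 2 with DESeq2 and with its size factors in edgeR, without Arhgef12. With limma on log2(FPKM + 1) or log2(FPKM + 0.1), kept at a mean FPKM of 0.1 or more, and on log2(FPKM + 1) with no filter, higher members numbered 1 each time (Nrp1), lower members 0 and members above without overlap 2, and higher partners numbered 0, 0 and 1. Of all genes in these fits, in that order, 0.968%, 0.985% and 0.699% were higher and 0.644%, 0.693% and 0.454% lower. Those above without overlap made up 3.76%, 3.76% and 3.43%. On log2(FPKM + 0.1) the median was 0.10 for all genes and 0.29 for the members, and on log2(FPKM + 1) with the filter 176 genes were higher and 117 lower, against 266 and 271 with edgeR. Genes with an unadjusted p under 0.05 numbered 537 with edgeR, 846 with DESeq2, 305 with either filtered limma fit, 206 when PM replicate 3 was dropped and 1209 when non-PM replicate 2 was. Leaving out 1 library at a time gave 0 to 5 higher and 0 to 3 lower members, 6 to 13 above and 0 to 3 below without overlap, and 0 to 6 higher and 0 to 1 lower partners. In the same runs 0.590% to 3.13% of all genes were higher, 0.515% to 3.38% lower and 6.35% to 13.8% above without overlap. The share of all genes below without overlap was not computed for these runs. Of the 18 members for which each of these fits was tabulated, the sign turned for Efnb2 (-0.14 to 0.38), Epha1 (-3.34 to 0.43), Sema3b (-0.058 to 0.29) and Unc5b (-0.42 to 0.39), none of them called with all libraries; other members also turned, since 46 lay above 0 with all libraries and 35 without PM replicate 3. The causes were not tested. Depth limits Epha6, Epha8, Epha10 and Robo3, with 33 counts or fewer each.

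In the labels, samples with the same replicate number share only that number. Their deviations from the group means correlated at -0.18, -0.56 and -0.44, and no PM sample correlated best with the non-PM sample of its own number. With 3 samples per group, these correlations cannot decide whether such samples shared a batch. With the replicate number as a block, 0 members were higher and 0 lower, 0 partners were higher, and 155 genes had an unadjusted p under 0.05.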
